A study of Caenorhabditis elegans with 39 samples.

Results

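The genes described here encode the contractile filaments of nematode muscle. They are 9 genes, chosen by their sequence names from the 22844 genes of the mRNA tables: *myo-1* (R06C7.10), *myo-2* (T18D3.4), *myo-3* (K12F2.1) and *unc-54* (F11C3.3), which encode muscle myosin heavy chains; *unc-15* (F07A5.7), paramyosin; *mlc-1* (C36E6.3) and *mlc-2* (C36E6.5), regulatory myosin light chains; *lev-11* (Y105E8B.1), tropomyosin; and *unc-27* (ZK721.2), a troponin I. All 9 were found in both mRNA tables.

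The study asked how piRNAs and WAGO-class 22G-RNAs shape germline gene expression in the nematode *Caenorhabditis elegans*, and sequenced gonads so that somatic tissue and the small germlines of mutants would weigh less. The groups used here are distal gonad arms of *prg-1(n4357)* mutants, which lack the Argonaute that binds piRNAs, of *mut-16(pk710)* mutants, which lack a protein needed to amplify WAGO-class 22G-RNAs, and of wild type N2 animals, together with whole wild type N2 animals, with 3 libraries per group and assay. All came from gravid adults of 68 to 70 h grown at 20°C on *E. coli* OP50. Both mutants had been outcrossed once to wild type just before the animals were expanded, the proximal arms with the oocytes and sperm had been cut away, and gonads were gathered over many hours per collection.

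In striated muscle, myosin heavy chains with their light chains project from thick filaments and pull on actin thin filaments. Paramyosin fills the core of the thick filament, and tropomyosin and troponin lie along the thin filament and open it to myosin when calcium rises. In *C. elegans*, *unc-54* and *myo-3* supply the heavy chains of body wall muscle and of the other non-pharyngeal muscles, among them the contractile sheath around the proximal gonad, while *myo-1* and *myo-2* supply those of the pharynx. Germ cells build their cortex from a separate, non-muscle myosin.

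The mRNA values are normalized reads per gene as deposited. They sum to 14202890 to 16048505 per library in the gonad and whole animal table and to 15311005 to 16823727 in the mutant table. The tables were scaled apart, so values are compared only within each, and no level is compared between genes because no transcript lengths were used. The labels matched the targeted genes, since *prg-1* mRNA averaged 5414 in *prg-1* and 10549 in wild type gonads, and *mut-16* mRNA averaged 950 in *mut-16* and 2069 in wild type gonads. Germ cell markers marked the dissected arms: 7 of 8 were called higher in gonads than in whole animals, as were 26.1% of all genes tested. Pairwise correlations of libraries within a group were 0.952 to 0.987 in *prg-1*, where replicate 3 stood apart, and 0.978 to 0.990 in the other 2 gonad groups.

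The first comparison asks how much muscle mRNA remains in dissected wild type arms. In gonads all 9 muscle mRNAs were reduced relative to whole animals, and for each of them every gonad library lay below every whole animal library. A gene was called when the adjusted p from limma (moderated linear models, Benjamini-Hochberg adjustment over all genes tested) was below 0.05 and the fold change at least 1.3. By this rule 52.6% of the 12761 genes tested were called lower in gonads, and 53.4% had groups that did not overlap with gonads lower. Of the 9 muscle genes, 7 passed the filter on low values in the gonad libraries alone, and these 7 had a median log2 change of -6.14, against -0.79 over all genes tested. *myo-1* and *myo-2* passed it only through the whole animal libraries, where they were high, and so had to differ. In these bulk samples, fewer cells of a type and less RNA per cell cannot be told apart.

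**Figure D1:**
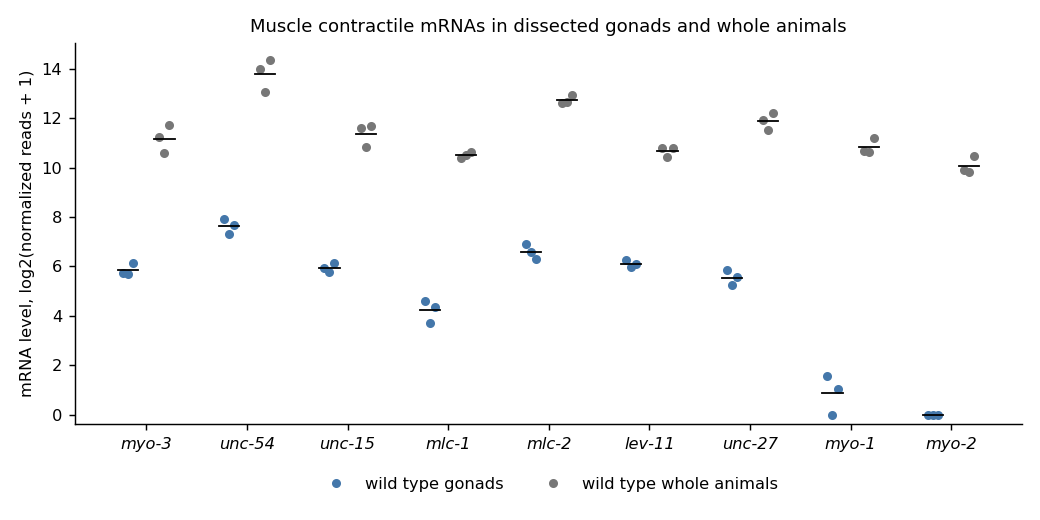
The plot of levels in gonads and whole animals gives log2(normalized reads + 1) on the y axis for each muscle gene on the x axis; each point is 1 library of wild type gonads (left) or wild type whole animals (right), and lines mark means of 3. No gonad library reaches the level of any whole animal library of the same gene, and *myo-1* and *myo-2* lie at or near 0 in gonads.

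*unc-54* encodes the major heavy chain of body wall thick filaments. It had 244, 157 and 206 normalized reads in the gonad libraries, against 16492, 8593 and 20928 in the whole animal libraries. Whole animal replicate 2 was the lowest of its group, and no gonad library came near it. The log2 change was -6.17 (SE 0.323, adjusted p = 1.24e-06, limma on log2(value + 1)), or 71.9-fold lower in gonads.

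*myo-3* encodes the heavy chain at the middle of the same filaments. Gonad libraries had 51.7, 51.4 and 68.6 normalized reads, against 2399, 1535 and 3390 in whole animals. Whole animals varied more than gonads did, with replicate 2 lowest. The log2 change was -5.33 (SE 0.276, adjusted p = 9.72e-07, limma), a 40.2-fold lower level in gonads.

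*unc-15*, the paramyosin gene, kept to the pattern of *myo-3*. It had 60.6, 54.0 and 68.8 normalized reads in gonads, against 3090, 1818 and 3336 in whole animals, with replicate 2 lowest in both groups. Its log2 change was -5.43 (SE 0.224, adjusted p = 1.87e-07, limma).

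The light chain genes *mlc-1* and *mlc-2* encode nearly identical proteins, so reads could have been split between them. *mlc-1* had 23.4, 12.01 and 19.3 normalized reads in gonads and 1347, 1468 and 1613 in whole animals. *mlc-2* had 118.996, 96.1 and 78.3 in gonads and 6323, 6515 and 7839 in whole animals. Unlike *unc-54*, *myo-3* and *unc-15*, neither light chain was lowest in whole animal replicate 2. Their log2 changes were -6.31 (SE 0.222) and -6.14 (SE 0.152), with adjusted p of 4.64e-08 and 1.33e-08 (limma).

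On the thin filament, *unc-27*, which encodes a troponin I of body wall muscle, had 56.6, 36.9 and 46.1 normalized reads in gonads and 3867, 2926 and 4794 in whole animals. The log2 change was -6.34 (SE 0.207, adjusted p = 5.55e-08, limma). *lev-11*, the tropomyosin gene, was the member least reduced in gonads. It had 76.6, 62.4 and 67.3 normalized reads there, against 1785, 1380 and 1800 in whole animals. The log2 change was -4.56 (SE 0.134, adjusted p = 2.19e-08, limma), or 23.6-fold lower, and its gonad values varied by little.

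The pharyngeal heavy chains differed from the rest in kind. *myo-2* was listed at 0 in all 3 gonad libraries, against 960, 908 and 1413 in whole animals. *myo-1* was listed at 1.95, 0 and 1.07 in gonads, against 1652, 1588 and 2383 in whole animals. A single read was worth 0.858 to 1.16 normalized reads in this table, so these gonad values stand for single reads. Because both passed the filter through the whole animal libraries alone and left the test when any one of those was left out, no p is given for them. The size of their fitted change depends on the value added before the logarithm: with 0.5, 1 and 5 added, the log2 change of *myo-2* was -11.07, -10.07 and -7.75.

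The fraction left in gonads was not even across the 9 genes. Given as the mean gonad value in percent of the mean whole animal value, 4.16% of *lev-11* remained, 2.34% of *myo-3*, 2.22% of *unc-15*, 1.42% of *mlc-2*, 1.32% of *unc-54*, 1.24% of *mlc-1*, 1.20% of *unc-27*, 0.0538% of *myo-1* and none of *myo-2*. In each of the 3 gonad libraries *lev-11* came first, and *myo-3* and *unc-15* came next in either order. The gonad libraries overlapped for *unc-54*, *mlc-1*, *mlc-2* and *unc-27*, whose order is therefore not resolved, and for *myo-3* and *unc-15*. Differences between these fractions were not tested, because members are not replicates. The median over the 9 was 1.32%, and 1.183% to 1.447% when single libraries were left out.

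**Figure D2:**
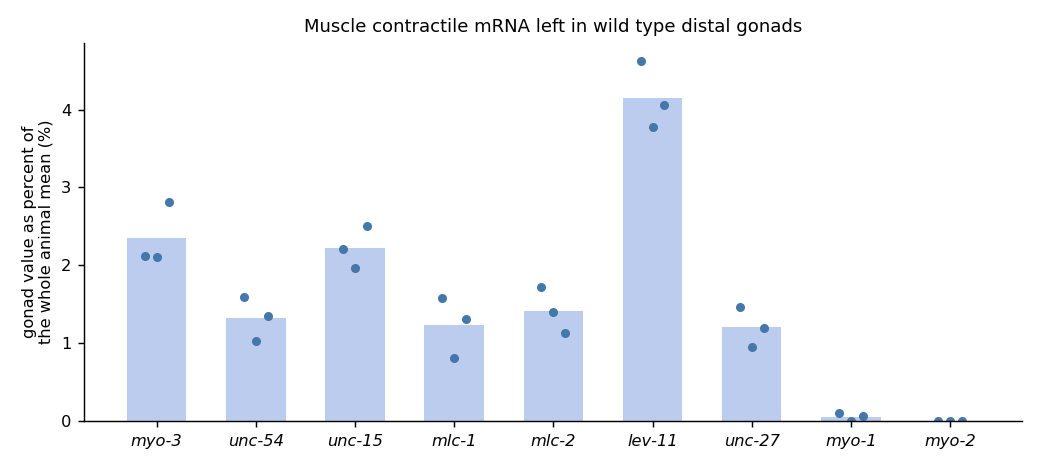
The plot of muscle mRNA left in gonads gives each wild type gonad library as a percentage of the mean of the 3 whole animal libraries (y axis, %) for each muscle gene (x axis); points are the 3 gonad libraries and bars their mean. *lev-11* lies at 4.16%, *myo-3* and *unc-15* lie above 2%, and *myo-1* and *myo-2* lie at or near 0.

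The make-up of the muscle signal shifted accordingly. The 9 genes summed to 633.6, 469.7 and 555.4 normalized reads in gonads, against 37915, 26731 and 47495 in whole animals. As a mean share of that sum, *lev-11* made up 12.5% in gonads and 4.55% in whole animals, and *myo-3* made up 10.5% in gonads and 6.40% in whole animals. *unc-54* held 36.3% in gonads and 39.9% in whole animals. *myo-1* held 0.167% of the gonad sum and 5.10% of the whole animal sum.

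Other muscle genes gave a wider range of changes. Of 8 further genes of the thick filament and its assembly, 7 were lower in gonads, 0 were higher and 1 was not called, with a median log2 change of -4.09. *mlc-3*, an essential light chain of muscle myosin, averaged 31.3 ± 10.2 in gonads and 1643 ± 274 in whole animals (SD, n = 3 each; log2 change -5.70). The giant filament proteins *ttn-1* (titin), *unc-89* (obscurin) and *unc-22* (twitchin) had log2 changes of -5.33, -5.05 and -4.37. *unc-45*, the chaperone that folds myosin heads, was the gene not called, at 2813 ± 75.5 in gonads and 2463 ± 244 in whole animals, a log2 difference of 0.20 that lies under the fold threshold.

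Of 19 thin filament genes tested, 15 were lower in gonads, 0 were higher and 4 were not called (median log2 change -4.42). *pat-10*, the body wall troponin C, averaged 214 ± 63.8 in gonads and 24068 ± 4023 in whole animals (SD, n = 3 each; log2 change -6.84). The troponin T gene *tnt-4*, of the pharynx, was listed at 0 in all 3 gonad libraries and averaged 384 in whole animals, and *tnc-2*, the pharyngeal troponin C, averaged 0.325 in gonads and 262 in whole animals. Both genes, like *tni-3* and *cpn-3*, stayed below 10 in every gonad library. They passed the filter on low values only through whole animals and so had to be lower, and the count and median include them. *act-2*, an actin gene, was at 5088 ± 218 in gonads and 4788 ± 543 in whole animals and was not called (log2 difference 0.09). Actin genes are near copies of one another: *act-1* and *act-3* had the same mean in each group, and reads could have been split among them.

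The structures that anchor and excite the filaments were mostly lower in gonads too. At the dense bodies and M-lines, which fix filaments to the cell membrane, 15 of 17 genes were lower, 0 were higher and 2 were not called (median -2.14). *alp-1*, an actinin-associated protein, fell by 6.59 on the log2 scale, and *unc-52*, the perlecan of the muscle basement membrane, by 5.92. *alp-1* was below 10 in every gonad library, so it too passed the filter only through whole animals and had to be lower. The β integrin *pat-3*, which many cell types use, was at 4073 ± 105 in gonads and 3627 ± 318 in whole animals and was not called, while its partner in muscle, the α integrin *pat-2*, averaged 43.5 ± 5.56 in gonads and 1534 ± 423 in whole animals (SD, n = 3 each; log2 change -5.08).

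All 14 genes of excitation and calcium handling were lower in gonads (median -2.27). *csq-1*, the calcium store protein calsequestrin, was at 21.3 ± 7.13 in gonads and 3669 ± 663 in whole animals (SD, n = 3 each; log2 change -7.39), and the IP3 receptor *itr-1* had a log2 change of -4.45. Of 7 muscle transcription factors 5 passed the filter and all 5 were lower, among them *hlh-1* (MyoD; -3.40), *unc-120* (SRF; -3.34) and the pharyngeal organ gene *pha-4* (-4.16). The filter asked for a value of at least 10 in 3 libraries, which a gene absent from gonads could pass only through whole animals. The factors *hlh-1*, *pha-4*, *hnd-1* and *tbx-2* stayed below 10 in every gonad library. So did *lev-1*, *slo-1*, *unc-29* and *unc-38* among the genes of excitation and calcium handling. All of these passed the filter only through whole animals and had to be lower, and the counts include them. Without any one whole animal library 1 transcription factor was left to be called, and without replicate 2 the count for excitation and calcium handling was 9.

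In the values as deposited, non-muscle actomyosin was the exception among these lists. Of its 13 genes 7 were higher in gonads, against 26.1% of all genes tested, 1 was lower and 5 were not called (median 0.41). *nmy-2*, the myosin heavy chain of the germ cell and embryo cortex, was at 31050 ± 1085 in gonads and 21944 ± 2399 in whole animals (SD, n = 3 each; log2 change 0.51), and the anillin *ani-2* had a log2 change of 0.76. *nmy-1*, the other non-muscle heavy chain, was the gene called lower (-3.05). With library totals made equal the median of all genes moved by -0.14 on the log2 scale. At that setting 18.6% of all genes tested were called higher, against 26.1% as deposited, and 3 of these 13 genes were.

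Markers of other somatic tissues were lower in gonads as well. All 10 intestinal markers were lower, with summed levels of 11.9 to 37.0 in gonads and 43436 to 56935 in whole animals. Of 8 hypodermal and cuticle genes tested 7 were lower, with sums of 516 to 892 in gonads and 108175 to 143669 in whole animals. Of 11 neuronal genes 10 were lower. Every intestinal marker but *ges-1* stayed below 10 in all gonad libraries. So did *rol-6*, *sqt-3*, *dpy-7* and *elt-3* of the hypodermal list, and *rab-3*, *snt-1*, *egl-21*, *egl-3* and *sng-1* of the neuronal list. These genes passed the filter only through whole animals and had to be lower, and the counts include them. Leaving out any one whole animal library removed most of the intestinal, hypodermal and neuronal genes from the filter, and the counts were then 1 intestinal, 3 hypodermal and 5 neuronal genes. Of 6 sheath and spermatheca genes tested 4 were lower. The 7 genes of that list summed to 15003 to 16828 in gonads and 14631 to 16819 in whole animals, most of it *fln-1* (filamin), and without *fln-1* to 1177 to 1315 in gonads and 2667 to 3030 in whole animals. The sheath marker *lim-7* averaged 37.0 in gonads and 47.7 in whole animals (log2 change -0.36, not called). Their part in the muscle values of gonads was not tested.

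The second comparison asks whether these low levels differ in the gonads of the mutants. In *prg-1* gonads the 7 muscle genes that could be tested were all higher than in wild type gonads, by log2 changes of 0.78 to 2.08, and every *prg-1* library lay above every wild type library for each of them. Over all 9943 genes tested 20.7% were called higher in *prg-1*, and 29.3% had groups that did not overlap with *prg-1* higher. The median log2 change was 1.44 over the 7 muscle genes and 0.01 over all genes tested. *myo-1* and *myo-2* were below the filter.

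**Figure D3:**
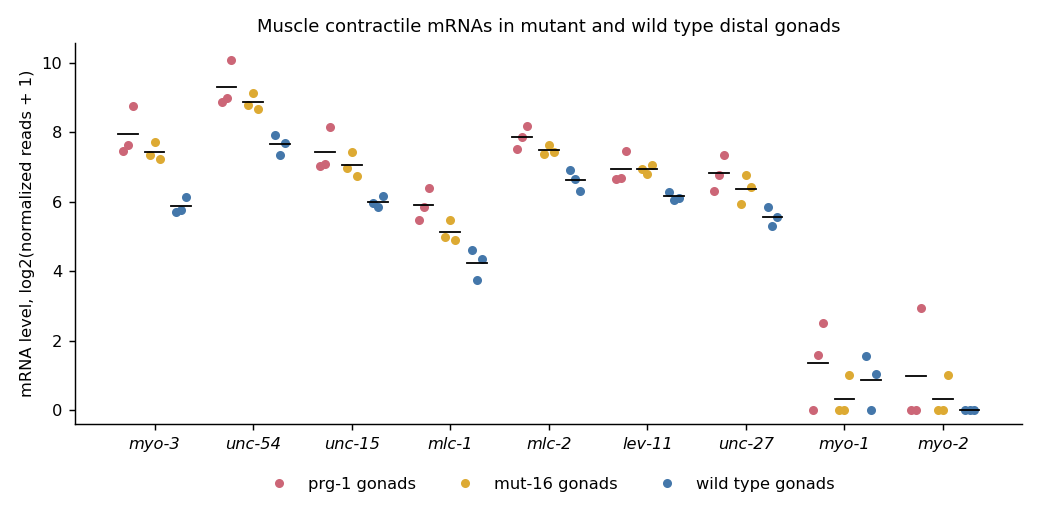
The plot of levels in mutant gonads gives log2(normalized reads + 1) on the y axis for each muscle gene on the x axis; points are the 3 libraries each of *prg-1* (left), *mut-16* (middle) and wild type (right) gonads, and lines mark means. For the first 7 genes every mutant library lies above every wild type library, and *prg-1* replicate 3 is the highest point of each.

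*myo-3* differed the most. It had 177, 196 and 431 normalized reads in *prg-1* gonads and 162, 212 and 149 in *mut-16* gonads, against 51.5, 53.5 and 69.1 in wild type gonads. *prg-1* replicate 3 was higher than any other library, and the remaining *prg-1* values lay among those of *mut-16*. By limma, *prg-1* gonads were higher by 2.08 on the log2 scale (SE 0.315, adjusted p = 0.00132), and *mut-16* gonads by 1.57 (adjusted p = 0.00864).

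In both mutants *unc-54* followed the same order of libraries. It had 465, 505 and 1076 normalized reads in *prg-1* gonads and 443, 562 and 402 in *mut-16* gonads, against 243, 163 and 207 in wild type gonads. Both mutants lay above wild type without overlap. The difference from wild type on the log2 scale was 1.64 for *prg-1* (SE 0.325, adjusted p = 0.00538) and 1.20 for *mut-16* (adjusted p = 0.0296), both by limma.

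*unc-15* had 131, 135 and 286 normalized reads in *prg-1* gonads and 125, 171 and 106 in *mut-16* gonads, against 61.3, 57.1 and 70.5 in wild type gonads. Relative to wild type its log2 change was 1.44 for *prg-1* (SE 0.296, adjusted p = 0.00432) and 1.05 for *mut-16* (adjusted p = 0.0271; limma). Both mutants lay above wild type, and their values overlapped each other.

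*mlc-1* had 43.2, 56.4 and 83.1 normalized reads in *prg-1* gonads and 30.8, 43.4 and 29.2 in *mut-16* gonads, against 23.3, 12.5 and 19.4 in wild type gonads. *mlc-2* had 184, 231 and 291 in *prg-1* gonads and 164, 198 and 173 in *mut-16* gonads, against 118.6, 99.9 and 78.8 in wild type gonads. Both light chains were higher in *prg-1*, by 1.66 (SE 0.318, adjusted p = 0.0026) and 1.23 (SE 0.187, adjusted p = 0.000836) on the log2 scale (limma). In *mut-16* the change of *mlc-2* passed the test (0.86, adjusted p = 0.00919, limma), and that of *mlc-1* did not (0.89, adjusted p = 0.056, limma).

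*lev-11* had 99.6, 102 and 177 normalized reads in *prg-1* gonads and 123, 110 and 133 in *mut-16* gonads, against 77.3, 65.8 and 68.6 in wild type gonads. It was the least changed member in *prg-1*, where the log2 change was 0.78 (SE 0.208, adjusted p = 0.0121, limma), and in *mut-16* the change was also 0.78 (adjusted p = 0.0209, limma). *unc-27* had 79.1, 108 and 163 in *prg-1* gonads and 60.6, 108 and 84.4 in *mut-16* gonads, against 56.4, 38.4 and 46.4 in wild type gonads. It was called in *prg-1* (log2 change 1.25, SE 0.286, adjusted p = 0.00609, limma) and not in *mut-16* (0.81, adjusted p = 0.0553, limma).

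The pharyngeal heavy chains stayed near 0 in all 9 gonad libraries. *myo-1* was listed at 0, 2.01 and 4.77 in *prg-1*, at 0, 0 and 1.04 in *mut-16*, and at 1.94, 0 and 1.08 in wild type. *myo-2* was listed at 0, 0 and 6.68 in *prg-1*, at 0, 0 and 1.04 in *mut-16*, and at 0 in all 3 wild type libraries. *prg-1* replicate 3, the library highest for the other members, held the highest value of both.

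Without *prg-1* replicate 3 all 7 genes remained called in *prg-1*, with smaller changes: the log2 change of *myo-3* was 1.68 and that of *lev-11* was 0.51. In *mut-16*, 5 of 7 genes were called higher (15.5% of all genes tested), and all 7 had groups that did not overlap, as did 28.4% of all genes tested. The count of called members was 3 when any one *mut-16* replicate or wild type replicate 2 was left out, 4 when wild type replicate 1 was and 2 when wild type replicate 3 was. Over all genes tested, 8.81%, 6.60% and 10.7% were called higher without *mut-16* replicates 1, 2 and 3. Leaving out wild type replicates 1, 2 and 3 gave 8.59%, 15.6% and 7.43%. The *mut-16* counts of other lists below at these settings stand beside the same shares. Libraries of *mut-16* and wild type with the same number deviated together, and with the replicate number as a block 4 members were called, *unc-54* having an adjusted p of 0.0505 (limma). *myo-3* and *mlc-2* kept their call under each of these settings.

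No difference between the 2 mutants passed the test for these genes, though the intervals leave room for moderate ones. None of the 7 passed the test of *prg-1* against *mut-16* (limma), a test that called 15.4% of all genes, and 1 of 7, *mlc-1*, had an unadjusted p under 0.05. The log2 difference of *prg-1* over *mut-16* was 0.51 for *myo-3* (95% interval -0.21 to 1.23), 0.44 for *unc-54* (-0.31 to 1.20), 0.77 for *mlc-1* (0.07 to 1.48) and 0.01 for *lev-11* (-0.46 to 0.47). Without *prg-1* replicate 1, *mlc-1* (0.99, adjusted p = 0.0418) and *mlc-2* (0.54, adjusted p = 0.0368) were called higher in *prg-1* (limma). Without *prg-1* replicate 3, the library that stood apart, the difference was 0.53 for *mlc-1*, 0.21 for *mlc-2*, 0.11 for *myo-3*, 0.06 for *unc-54*, 0.02 for *unc-15* and -0.26 for *lev-11*, and none was called.

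**Figure D4:**
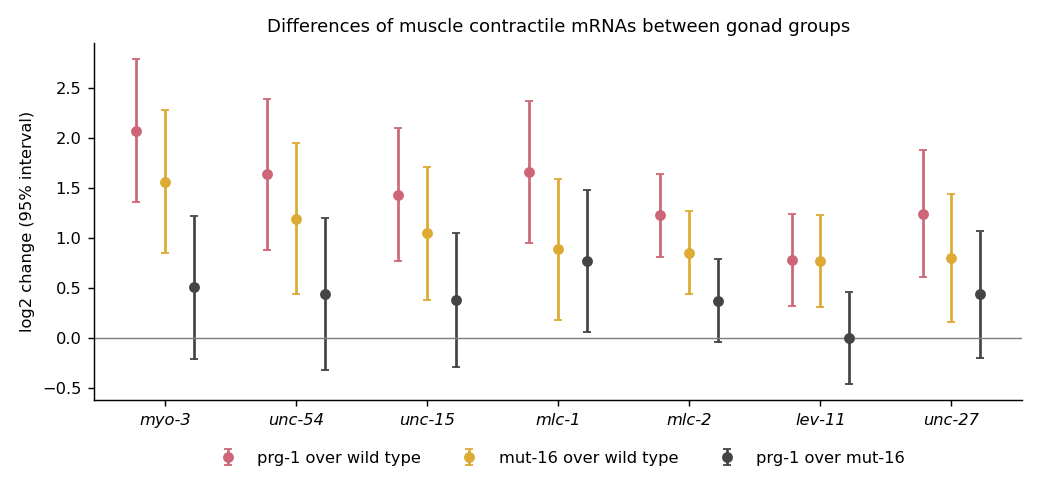
The plot of differences between gonad groups gives the log2 change from limma with its 95% interval (y axis) for the 7 tested muscle genes (x axis), as *prg-1* over wild type (left of each trio), *mut-16* over wild type (middle) and *prg-1* over *mut-16* (right). The *prg-1* changes run from 0.78 for *lev-11* to 2.08 for *myo-3*, and the intervals of *prg-1* over *mut-16* include 0 for all genes but *mlc-1*.

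The 9 genes together summed to 1178, 1335 and 2519 normalized reads in *prg-1* gonads and 1109, 1403 and 1078 in *mut-16* gonads, against 633, 490 and 561 in wild type gonads. Their proportions differed between groups as well. The share of *myo-3* in that sum was 14.7% to 17.1% in *prg-1* and 13.8% to 15.1% in *mut-16*, against 8.13% to 12.3% in wild type. The share of *lev-11* was 7.02% to 8.46% in *prg-1* and 7.83% to 12.3% in *mut-16*, against 12.2% to 13.4% in wild type. For *myo-3* no mutant library overlapped wild type, and for *lev-11* only *mut-16* did.

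Across the 9 gonad libraries the 7 tested muscle genes varied together, with Pearson correlations of log2 levels from 0.81 (*lev-11* with *mlc-1*) to 0.99 (*myo-3* with *unc-15*). These are descriptions over 9 libraries in 3 groups that share the group difference. Of 9936 other genes, those whose log2 level was most like the summed muscle signal were Y39F10A.3 (r = 0.990), H27M09.5 (0.983), ZK512.10 (0.983), *mlp-1*, a muscle LIM domain protein (0.983), and F59C6.3 (0.981). Y39F10A.3, ZK512.10 and F59C6.3 stayed below 10 in every wild type library and passed the filter only through mutant libraries. Y39F10A.3 was listed at 0 in all wild type libraries, at 4.17 to 12.4 in *mut-16*, and at 8.28, 10.1 and 72.6 in *prg-1*. *mlp-1* had 43.3, 47.1 and 78.6 normalized reads in *prg-1* and 46.7, 49.8 and 49.1 in *mut-16*, against 24.7, 21.3 and 23.6 in wild type.

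Among the other muscle lists, the thick filament genes moved most in *prg-1*. Counts of each list stand beside the shares of all genes tested. These were 20.7% higher and 9.53% lower in *prg-1*, and 15.5% higher and 4.60% lower in *mut-16*. Of 8 genes 6 were higher, 0 were lower and 2 were not called, with a median log2 change of 1.102. *unc-89* averaged 541 ± 276 in *prg-1*, against 102 ± 19.4 in wild type (SD, n = 3 each; log2 change 2.29, adjusted p = 0.0014, limma), and the kinase *unc-82* had a log2 change of 1.28. *mlc-3* changed by 1.21, a call that was lost without *prg-1* replicate 3 and without wild type replicate 2 or 3. In *mut-16* only *unc-22* of these 8 genes was called higher (0.76), and none was without any one *mut-16* replicate or wild type replicate 1.

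Of 16 thin filament genes tested, 6 were higher and 1 was lower in *prg-1* (median 0.37), and 5 were higher and 0 lower in *mut-16* (median 0.23). *pat-10* was higher in both, by 1.79 in *prg-1* and 1.26 in *mut-16*, as was the troponin T *mup-2*, by 1.60 in *prg-1* and 1.36 in *mut-16*, with all adjusted p from 0.00066 to 0.0059 (limma). *act-2* was called in neither, at -0.03 in *prg-1* and -0.25 in *mut-16*. The gene lower in *prg-1*, named after its values were seen, was *unc-78*, which helps to take actin filaments apart (-0.45, a call lost without wild type replicate 2). The *mut-16* count was 2 without wild type replicate 3 and 3 without *mut-16* replicate 1 or 2 or wild type replicate 1.

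At dense bodies and M-lines 5 of 17 genes were higher in *prg-1* and 0 were lower, and 3 were higher and 1 lower in *mut-16*. The counts of higher genes lay near the shares of all genes tested, 20.7% in *prg-1* and 15.5% in *mut-16*. *pat-2* changed by 1.66 in *prg-1* and 1.20 in *mut-16*, and *unc-52* by 1.41 in *prg-1* and 0.86 in *mut-16*, the *unc-52* call in *mut-16* being lost without wild type replicate 3. The dystrobrevin *dyb-1* went against the list in *mut-16*, at 16.9 ± 5.25 there against 66.2 ± 17.5 in wild type (SD, n = 3 each; log2 change -1.92, adjusted p = 0.00098, limma), and *prg-1* was higher than *mut-16* by 1.89. Without wild type replicate 3 the counts of higher genes were 3 in *prg-1* and 1 in *mut-16*.

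Of 12 genes of excitation and calcium handling, 5 were higher and 1 lower in *prg-1*, and 3 were higher and 1 lower in *mut-16*. Over all genes tested 20.7% were higher in *prg-1* and 15.5% in *mut-16*. *csq-1* was at 135 ± 71.6 in *prg-1* and 61.003 ± 11.3 in *mut-16*, against 21.6 ± 6.81 in wild type (SD, n = 3 each), with log2 changes of 2.51 in *prg-1* and 1.48 in *mut-16*. The *mut-16* call of *csq-1* was lost without *mut-16* replicate 2 or wild type replicate 3. *unc-49*, a GABA receptor of body wall muscle, was the gene called lower, with log2 changes of -1.73 in *prg-1* and -1.56 in *mut-16*, and the *mut-16* call was lost without any one *mut-16* replicate and the *prg-1* call without *prg-1* replicate 2. It had 28.3, 17.1 and 16.4 normalized reads in wild type and less than 10 in every mutant library. It thus passed the filter only through wild type and could only come out lower. In the same way *unc-29*, counted as higher in *prg-1*, reached 10 only in *prg-1* libraries. *slo-1*, also counted as higher in *prg-1*, stayed below 10 in every wild type library. It passed the filter only through mutant libraries, so its direction against wild type was fixed as well. The count of higher genes in *prg-1* was 3 without *prg-1* replicate 2 or 3, and that in *mut-16* was 1 without wild type replicate 3.

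None of 13 non-muscle actomyosin genes was called in *prg-1* (median log2 change -0.08) or in *mut-16* (-0.02) by limma with the fold threshold. At an unadjusted p under 0.05 there were 4 in *prg-1* and 1 in *mut-16*, 3 were lower in *prg-1* when no fold was asked for, and 1 was called lower in *prg-1* without replicate 3 of that group. *nmy-2* was at 27567 ± 1661 in *prg-1* and 30854 ± 778 in *mut-16*, against 31508 ± 1158 in wild type (SD, n = 3 each). The one muscle transcription factor that passed the filter, *unc-120*, was at 22.5 ± 9.33 in *prg-1* and 17.6 ± 2.78 in *mut-16*, against 10.5 ± 1.40 in wild type, and was called in neither, though it was in *prg-1* without replicate 1 of that group.

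Sperm genes moved with the muscle genes in both mutants. All 23 major sperm protein genes were higher in *prg-1* (median log2 change 4.84), and 21 of 23 were in *mut-16* (3.47), a *mut-16* count of 4 without *mut-16* replicate 2, 8 when wild type replicate 3 was left out, 12 when wild type replicate 1 was, and 13 when *mut-16* replicate 1 was. They summed to 5289, 10495 and 27041 in *prg-1* gonads and 4639, 7343 and 2997 in *mut-16* gonads, against 238, 1108 and 201 in wild type gonads. *prg-1* replicate 3 and *mut-16* replicate 2 were highest in their groups for both the sperm and the muscle sum, and in wild type the highest sperm sum was in replicate 2 and the highest muscle sum in replicate 1. Sperm genes were among the groups the study picked from these libraries, so that list is not independent evidence. Its part in the muscle result was not tested.

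Other cell type lists gave fewer calls. For comparison, 20.7% of all genes tested were higher in *prg-1* and 15.5% in *mut-16*. Of 6 sheath and spermatheca genes 1, the innexin *inx-9*, was higher in each mutant (2 genes in *prg-1* without its replicate 1 or wild type replicate 3, and 2 in *mut-16* without its replicate 3). All 6 had log2 changes above 0 in both mutants, with medians of 0.56 in *prg-1* and 0.47 in *mut-16*. The list summed to 15646 to 19655 in *prg-1* and 16738 to 18035 in *mut-16*, against 15539 to 16894 in wild type, most of it *fln-1*. Without *fln-1*, a sum taken after the values were seen, it came to 1564 to 1866 in *prg-1* and 1425 to 2118 in *mut-16*, against 1224 to 1324 in wild type, so that every mutant library lay above every wild type library. Among all genes tested 29.3% did so in *prg-1* and 28.4% in *mut-16*. Across the 9 gonad libraries, which share the group difference, log2 levels of these 6 genes correlated with the summed muscle signal by 0.88 for *ceh-18*, 0.86 for *inx-9*, 0.78 for *plc-1*, 0.75 for *lim-7*, 0.57 for *fln-1* and 0.42 for *inx-8*. Such values were not particular to this list. Sperm genes gave 0.84 (*msp-79*) to 0.95 (*msp-76*). Tested neuronal genes ran from -0.72 (*unc-119*) to 0.83 (*unc-13*), and hypodermal genes from -0.30 (*nhr-23*) to 0.70 (*col-19*). Of 4 hypodermal genes tested 2 were higher in *prg-1* and 0 in *mut-16*, with the *prg-1* count 0 without *prg-1* replicate 1 or 3 or wild type replicate 2 or 3 and 1 without *prg-1* replicate 2. Of 6 neuronal genes 2 were higher in each mutant, with the *mut-16* count 1 without any one *mut-16* replicate or wild type replicate 2 or 3. Intestinal markers summed to 48.7 to 61.1 in *prg-1* and 27.9 to 40.1 in *mut-16*, against 11.9 to 36.9 in wild type. *prg-1* thus lay above wild type without overlap, as did 29.3% of all genes tested, and *mut-16* overlapped it. Only 1 of these 10 genes passed the filter, and it was not called. The protease gene *asp-1* had 14.7, 15.1 and 6.68 in *prg-1* and 5.14, 0 and 3.13 in *mut-16*, against 2.92, 2.68 and 1.08 in wild type. The proton pump gene *vha-6* had 8.28, 6.04 and 10.5 in *prg-1* and 1.03, 1.03 and 4.17 in *mut-16*, against 3.89, 1.78 and 1.08 in wild type. *lys-4* lay above wild type in *prg-1* too, at 1.84, 3.02 and 4.77 against 0.972, 1.78 and 0. The intestinal regulator *elt-2* was at 0 in *prg-1*, and at 0 to 1.04 in *mut-16* and 0 to 0.972 in wild type. *act-5*, *cpr-6*, *ges-1*, *spp-5*, *mtl-2* and *ftn-1* overlapped wild type in *prg-1*, and all these intestinal values stand for few reads. Of 8 germ cell genes 0 were higher and 1 was lower in each mutant, where 9.53% of all genes tested were lower in *prg-1* and 4.60% in *mut-16*. Germ cell genes summed to 63719 to 69311 in *prg-1* and 56946 to 61552 in *mut-16*, against 68250 to 72671 in wild type. *rme-2* was the largest part of that sum. The part of these cell types in the muscle result was not tested.

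Small RNAs gave a separate readout for 1 of the 9 genes. 22G-RNAs are short antisense RNAs that Argonautes carry to matching mRNAs, and of the muscle genes only *lev-11* was listed among the annotated 22G-RNA loci, in the class that depends on mutator proteins such as MUT-16. The small RNA values sum to 2911481 to 6209799 normalized reads per library in the mutant table and to 1776069 to 2318110 in the gonad and whole animal table. *lev-11* 22G-RNAs were at 4.98, 10.8 and 17.3 normalized reads in *prg-1* gonads and at 2.76, 3.55 and 0.984 in *mut-16* gonads, against 205, 191 and 173 in wild type gonads. No mutant library came near the wild type ones.

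By limma these 22G-RNAs had a log2 change of -4.13 in *prg-1* gonads (adjusted p = 1.34e-05) and of -5.88 in *mut-16* gonads (adjusted p = 7.53e-07), while of the 8031 small RNA features tested 47.3% were called lower in *prg-1* and 33.6% in *mut-16*. A count test on the recovered reads (edgeR, all 9 libraries) gave log2 changes of -4.19 in *prg-1* and -6.44 in *mut-16*. *lev-11* 22G-RNAs were thus lower in both mutants, and *lev-11* mRNA was higher in both. The *mut-16* call of *lev-11* mRNA was lost without *mut-16* replicate 1 or 3 or wild type replicate 2 or 3. The 6 other tested muscle genes were not listed as 22G-RNA loci, so no 22G-RNA values are at hand for them. Their mRNA changes in *prg-1* were 1.23 to 2.08. The part of 22G-RNAs in the mRNA changes was not tested.

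**Figure D5:**
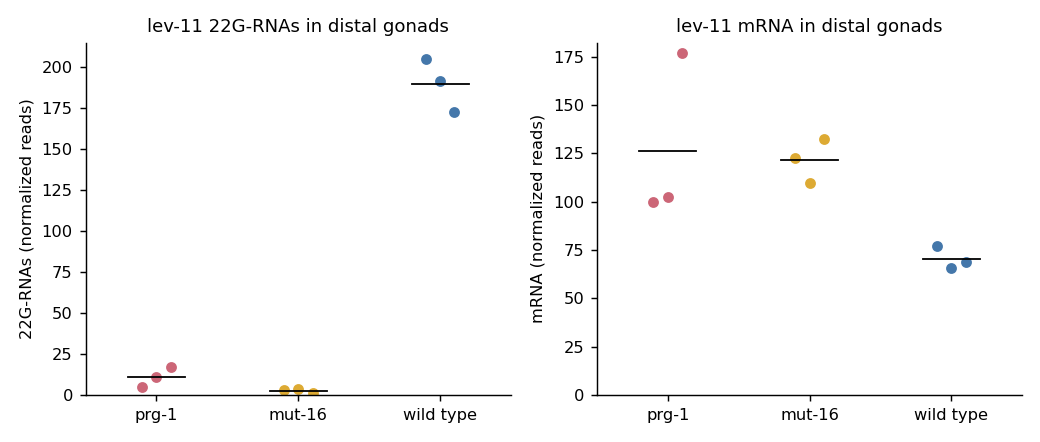
The plots of *lev-11* give normalized reads of its 22G-RNAs (left, y axis) and of its mRNA (right, y axis) in each of 3 libraries of *prg-1*, *mut-16* and wild type distal gonads (x axis); points are libraries and lines means. The 22G-RNAs lie at 17.3 or less in every mutant library and at 173 or more in every wild type library, while the mRNA lies at 99.6 or more in every mutant library and at 77.3 or less in every wild type library.

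In wild type gonads *lev-11* 22G-RNAs were at 78.5, 71.8 and 67.8 normalized reads, against 111, 97.4 and 67.2 in whole animals, on the scale of the other table. The groups overlapped, and limma made no call (log2 change -0.30, adjusted p = 0.236; 23.2% of 7191 features were called lower). The edgeR test called them lower (-0.44, adjusted p = 0.0484), as did limma without whole animal replicate 3 (-0.51, adjusted p = 0.023). *lev-11* mRNA was lower in gonads by 4.56 on the log2 scale, as given above.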

How the data were processed

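The deposited mRNA and small RNA tables hold normalized signal values, not unscaled counts. For mRNAs the authors depleted rRNA, trimmed reads (Trimmomatic 0.35), aligned them (STAR 2.5.0a) to the WS230 annotation and counted them per gene (RSEM 1.3.0, which sums isoforms). DESeq2 1.18.1 is named for differential expression. How the deposited values were scaled is not given in the sources used here. For small RNAs they aligned reads with CASHX and counted features with SAMtools 1.6 and Perl scripts. No reads were aligned again, and the transposon tables were not used.

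limma 3.58.1 (mean-variance trend, robust) was fitted on log2(value + 1), two-sided, over features reaching 10 in at least 3 libraries, with 1 fit for wild type gonads and whole animals (6 libraries) and 1 for all 9 gonad libraries. This is the test planned for scaled values. A call needs an adjusted p below 0.05 and a fold of at least 1.3, as in the study. Fold changes understate the change of low genes. Of mRNA values under 50 reads, 85.0% to 91.1% per library were whole multiples of 1 read to within 0.01 in the tissue table and 85.8% to 87.0% in the mutant table, too few for a count test. All small RNA values were whole multiples, so edgeR 4.0.16 was run on those reads as an alternative added after the values were seen, as was limma on small RNAs. It called 1613 features higher and 4049 lower of 8219 in *prg-1*, 1260 and 2851 in *mut-16*, and 2129 and 2093 of 7667 in gonads against whole animals.

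The 9 genes, the marker lists and the tests were chosen with earlier results of these data known. Named genes are the 9, up to 4 called genes per muscle list with the largest change, the uncalled gene with the highest level, the 5 genes most like the summed muscle signal, and *prg-1* and *mut-16*. Markers of other cells, and genes named only for how they passed the filter, were named after their values were seen. *tmd-1* and *unc-17* of the lists were not matched. Names come from the RefSeq table of WBcel235, which named 20063 of 22844 features.

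Replicates are called biological in the study, and p-values measure the spread between these libraries. Residuals of *mut-16* and wild type gonad libraries of the same number correlated by 0.124 to 0.547, so the numbers pair them by the rule of all over 0.1. The other pairs of groups did not (lowest -0.407 for *prg-1* with wild type). The scripts were tested on simulated data. Alternatives tried were a fit of the compared groups alone, the replicate number as a block, leaving out 1 library at a time, dropping the filter or the fold threshold, pseudocounts of 0.5 and 5, equal totals and median-of-ratios (RLE) scaling.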

Additional observations from a re-analysis of the deposited data

How the results depend on the processing

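With pseudocounts of 0.5 and 5, RLE scaling, equal totals, no filter, no fold threshold and the replicate block, 9 of 9 muscle genes were lower in gonads and 7 of 7 higher in *prg-1*. Leaving out single libraries gave 7 to 9 lower in gonads, since *myo-1* and *myo-2* pass the filter only through 3 whole animal libraries, 7 in every case higher in *prg-1*, 2 to 4 higher in *mut-16* and 0 to 2 higher in *prg-1* than in *mut-16*. In *mut-16* 4 were called with the replicate block and 4 without the filter (*unc-54* adjusted p = 0.0645, limma), and 7 with equal totals and with only the 2 groups compared; the cause was not tested. The block and the pairing changed no other call of a muscle gene among the 9.

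Differences that changed sign were all uncalled. With equal totals the log2 change was -0.024 for *act-2* in gonads over whole animals and, in *prg-1* over *mut-16*, -0.044 for *lev-11* and -0.025 for *sca-1*, the calcium pump of the muscle store. Leaving out single libraries gave, in *prg-1* over wild type, -0.11 to 0.034 for *act-2* and -0.083 to 0.035 for *sca-1*, and in *prg-1* over *mut-16*, -0.26 to 0.15 for *lev-11*, -0.040 to 0.078 for *sca-1* and -0.011 to 0.60 for *unc-120*; the cause was not tested. Values near single reads limit what can be said of *myo-1* and *myo-2*.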
